A study of Mus musculus with 8 samples.

Results

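Rnf39 and the genes around it lie in the class I part of the mouse major histocompatibility complex on chromosome 17, and 8 of them were followed here: Rnf39, Trim10, Trim15, Trim26, Trim31, Trim39, Trim40 and Ppp1r11. They were selected on the difference of Rnf39 between α-Gal A(-/0) and wildtype dorsal root ganglia (DRGs), so that the difference itself is given below as a description and not as a test. On the array they are represented by 9 of the 55681 probes, 1 for each gene and a second for Trim39, each printed as 1 spot per array. The tissue was DRGs of the lumbar levels L3-L5, where sensory neurons that reach the hind limb have their somata, wrapped in satellite glia. It came in 4 samples from α-Gal A(-/0) mice (FD, a model of Fabry disease that lacks the lysosomal enzyme α-galactosidase A, background C57BL/6) and in 4 samples from wildtype C57BL/6J mice. All mice were males aged 20 to 24 weeks, each sample pooled the DRGs of 2 of them, and the groups came from separate inbred colonies. Genotype and colony therefore cannot be told apart in any FD and wildtype difference given here. In bulk tissue, more RNA per cell and more cells of a type cannot be told apart either.

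Most TRIM proteins are E3 ubiquitin ligases. They carry a RING domain, which brings in the enzyme that hands over ubiquitin, followed by B-box and coiled-coil parts through which they bind each other, and many end in a PRY-SPRY part that holds the target protein. The TRIM genes next to the class I genes are best known from innate immunity and from blood and gut cells. Rnf39 encodes a RING finger protein of the same neighbourhood that was first described in the rat hippocampus as a transcript induced by long-term potentiation, and in human cells it has been reported to ubiquitinate the RNA helicase DDX3X. Ppp1r11 encodes an inhibitor of protein phosphatase 1.

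Rnf39 and Trim40 had higher signals in FD DRGs than in wildtype DRGs, while the other members measured in both groups overlapped between them. The level of Rnf39 was 7.18 times that of wildtype, and Trim40 was well above background on all 4 FD arrays and on 0 of the 4 wildtype arrays. Ppp1r11, whose probe lies 1.366 kb from that of Rnf39, overlapped between the groups, as did Trim26, Trim39 and Trim10. Trim15 and Trim31 were not well above background on any array.

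The probes that carry this contrast are shown because each gene is read by 60 bases only. They are written in lower case as the array design gives them, with positions on mm9. The probe of Rnf39 (NM_001099632, chr17:37084871-37084930, plus strand) and that of Trim40 (NM_001033235, chr17:37018580-37018639, minus strand) gave the higher FD signals, and that of Ppp1r11 (NM_029632, chr17:37086237-37086296, minus strand) and that of Trim31 (NM_146077, chr17:37047045-37047104, plus strand) are the member probes next to Rnf39 on the right and on the left.
Rnf39 probe: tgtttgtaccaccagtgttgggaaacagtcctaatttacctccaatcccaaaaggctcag
Trim40 probe: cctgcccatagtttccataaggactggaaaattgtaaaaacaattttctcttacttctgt
Ppp1r11 probe: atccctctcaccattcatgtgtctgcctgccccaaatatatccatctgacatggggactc
Trim31 probe: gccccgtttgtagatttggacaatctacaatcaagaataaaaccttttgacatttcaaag

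The share of G and C was 45% in the Rnf39 probe, 35% in the Trim40 probe, 50% in the Ppp1r11 probe and 35% in the Trim31 probe. The Ppp1r11 and Rnf39 probes lie on opposite strands. Which exon or untranslated region each probe reads was not analysed here.

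The promoters of the 2 genes with higher FD signals are shown because these genes had the signals that separated the groups. The windows run from 250 bases before to 50 bases after the annotated start, taken from RefSeq on GRCm38.p6, a different build from that of the probes. Capitals mark matches to the motifs searched on both strands. The Rnf39 window is chr17:36942801-36943100 on the plus strand, and the Trim40 window is chr17:36890076-36890375 on the minus strand.
Rnf39 promoter: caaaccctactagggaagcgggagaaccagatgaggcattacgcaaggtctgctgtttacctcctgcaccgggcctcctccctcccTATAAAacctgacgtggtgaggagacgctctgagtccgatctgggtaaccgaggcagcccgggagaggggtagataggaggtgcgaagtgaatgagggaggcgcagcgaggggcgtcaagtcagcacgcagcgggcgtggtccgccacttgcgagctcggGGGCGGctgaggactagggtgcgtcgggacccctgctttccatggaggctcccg
Trim40 promoter: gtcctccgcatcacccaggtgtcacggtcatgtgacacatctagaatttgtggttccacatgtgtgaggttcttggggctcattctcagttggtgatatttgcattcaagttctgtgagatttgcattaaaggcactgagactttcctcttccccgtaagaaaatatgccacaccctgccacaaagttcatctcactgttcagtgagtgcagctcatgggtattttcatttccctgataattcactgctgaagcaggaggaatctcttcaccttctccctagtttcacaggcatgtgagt

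The Rnf39 window held 22 CpG dinucleotides and 63.3% G and C, and the Trim40 window 3 CpG and 46% G and C. Over 32851 mouse promoter windows of the same length the median was 7 CpG and 52.7% G and C, so that the Rnf39 window lay above the median and the Trim40 window below it on both counts. In the Rnf39 window the letters TATAAA, present in 13.6% of all windows, began at base -164 counted from the start, and the GC box letters GGGCGG, present in 35.7%, began at base -4. The Trim40 window held no match to these letters, nor to CCAAT (37.4% of all windows), the AP-1 letters TGANTCA (7.81%), the cAMP response letters TGACGTCA (1.79%), the STAT letters TTCNNNGAA (8.30%) or the paired interferon factor letters GAAANNGAA (8.56%). The last 5 motifs had no match in the Rnf39 window either. These matches describe letters only, and no binding was measured.

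Rnf39 was measured well above background on all 8 arrays. Its normalized log2 signal was 9.97, 10.03, 9.93 and 9.98 in FD samples 1 to 4, against 7.16, 7.01, 7.10 and 7.27 in wildtype samples 1 to 4. The samples of a group lay close together and the lowest FD sample was far above the highest wildtype sample. On the scanner's linear scale, before normalization between arrays, the signal was between 890 and 1219 in FD samples and between 123 and 165 in wildtype samples. The means were 9.98 ± 0.042 in FD DRGs and 7.14 ± 0.11 in wildtype DRGs (SD, n = 4 each), a log2 difference of 2.84 with a standard error of 0.067 in the limma fit. Among the 29432 probes well above background on every array, 2 had a rise at least as large, the Rnf39 probe included. With any 1 sample left out the difference was between 2.80 and 2.89. The slide holds its arrays in 2 rows, and the difference was 2.82 in row 1 (3 FD samples and 1 wildtype sample), 2.86 in row 2 (1 FD sample and 3 wildtype samples) and 2.84 with the row as a block.

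Trim40, reported in human gut epithelium to attach NEDD8 to the NF-κB regulator IKKγ, is encoded on the other strand, with its probe 66.3 kb to the left of the Rnf39 probe. Its normalized log2 signal was 6.55, 6.39, 6.42 and 6.40 in FD samples 1 to 4, against 4.52, 3.57, 3.93 and 3.44 in wildtype samples 1 to 4. Again the groups did not overlap, and the wildtype values, none of them well above background, were more scattered than the FD values. The scanner's linear signal was between 75.2 and 96.2 in FD samples and between 10.9 and 20.4 in wildtype samples. The FD mean of 6.44 ± 0.075 (SD, n = 4) stood against a measured wildtype mean of 3.86 ± 0.48 (SD, n = 4). Each wildtype value was therefore replaced by the lowest signal of any probe well above background on its array, where that was higher. This gave a mean of 4.79 and a level 3.14-fold higher in FD DRGs. The 3.14-fold is approximate and no strict lower bound, since a probe can exceed that lowest signal without being well above background. In wildtype sample 1 Trim40 did so, at 4.52 against 4.41. A probe with 4 FD arrays and 0 wildtype arrays well above background was rare on the slide, at 69 of 55440 probes with a value on every array (0.124%), and the opposite was seen for 17 (0.0307%). The measured log2 difference was 1.94 within slide row 1 and 2.75 within slide row 2. Over all samples the 2.57 became 0.81 (1.75-fold) when the background was corrected with normexp and an offset of 50, a constant larger than each of the wildtype linear signals of this probe.

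**Figure D1:**
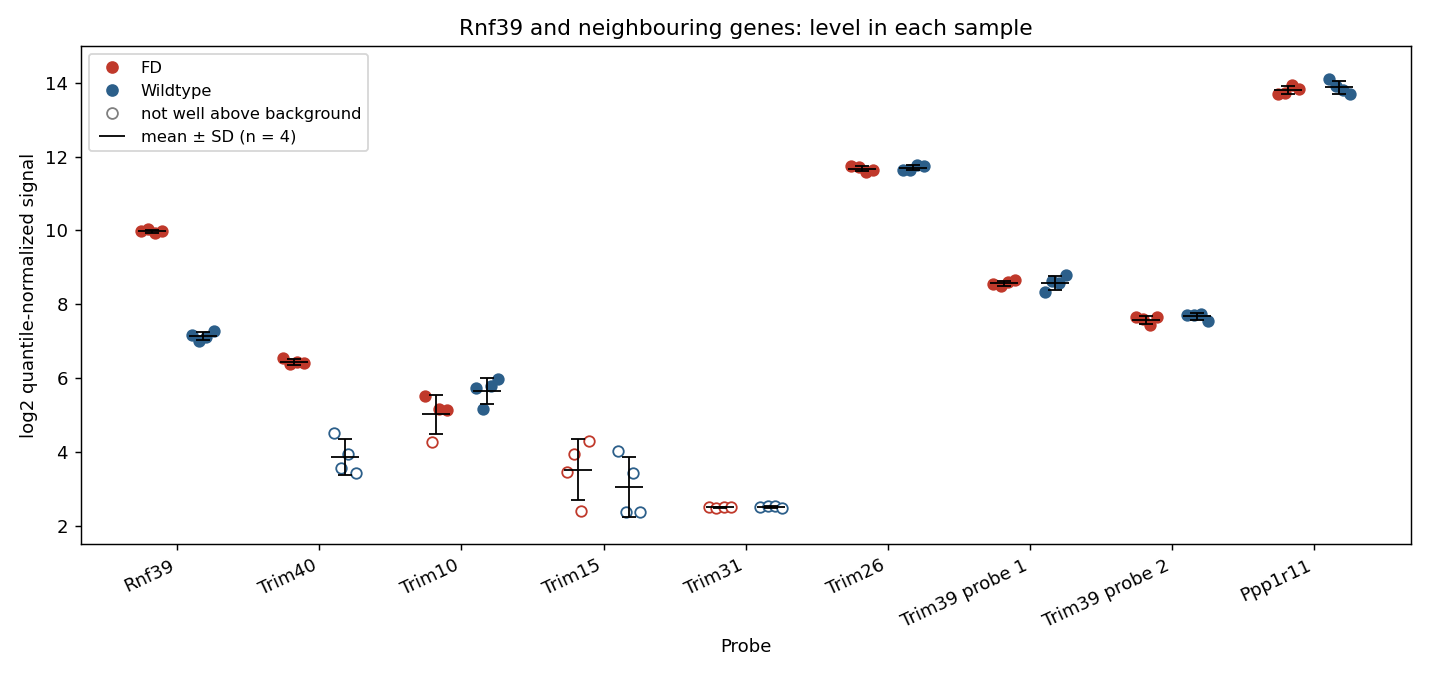
Normalized log2 signal (vertical axis) of the 9 probes of Rnf39 and its neighbours (horizontal axis) in each of 4 FD samples (red, left of each pair) and 4 wildtype samples (blue, right), with mean and SD as black bars and open circles where a probe was not well above background. Rnf39 and Trim40 are separated by group, Trim15 and Trim31 are open on all 8 arrays, and the levels of different probes are not to be compared with each other.

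Trim10 (NM_011280, chr17:37014159-37014218, plus strand) and Trim15 (NM_001024134, chr17:36997790-36997849, minus strand) are the members between Trim26 (NM_001286726, chr17:36996236-36996295, plus strand) and Trim40. Trim10, which encodes a RING protein needed for the maturation of red blood cells in mouse cell culture, had normalized log2 signals of 5.51, 4.26, 5.17 and 5.12 in FD samples 1 to 4, against 5.74, 5.15, 5.77 and 5.97 in wildtype samples 1 to 4. It was well above background on 3 FD arrays, all but that of FD sample 2, and on 4 wildtype arrays. The groups overlapped, and the log2 difference of -0.64 had FD and wildtype SDs of 0.53 and 0.35. It was -0.39 without FD sample 2, -0.82 without wildtype sample 2 and -0.26 with normexp. Of the tested markers of erythroid cells 0 of 4 were called, and each overlapped between the groups. Each had a lower mean in FD DRGs, and 2 of 4 were at an unadjusted p under 0.05 in limma (17.6% of all tested probes). The median log2 difference of these markers was -0.43, with mean levels of 9.79 to 10.51 in FD samples and 10.29 to 10.96 in wildtype samples. Klf1, a transcription factor of red cell precursors, was not well above background on any array. The part of these markers in the Trim10 values was not tested.

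Trim15, whose human protein sits at focal adhesions with paxillin, gave 2.39 to 4.30 in FD samples and 2.36 to 4.01 in wildtype samples and was not well above background on any array. Trim31, which encodes a ligase that ubiquitinates the antiviral adaptor MAVS and the inflammasome protein NLRP3 in mice, gave 2.49 to 2.51 in FD samples and 2.48 to 2.52 in wildtype samples, also not well above background anywhere. Its probe lies between those of Trim40 and Rnf39, 37.8 kb to the left of Rnf39. For these 2 genes the arrays give no measure of a difference in either direction.

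Trim26, Trim39 and Ppp1r11 were well above background on all 8 arrays, as was Rnf39, so that their group differences were measured on both sides. Trim26, reported to ubiquitinate nuclear IRF3, had 11.73, 11.71, 11.59 and 11.64 in FD samples 1 to 4, against 11.64, 11.64, 11.78 and 11.74 in wildtype samples 1 to 4, on the normalized log2 scale. The groups overlapped throughout, with a difference of -0.032 and a standard error of 0.060.

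Trim39 stabilizes the apoptosis regulator MOAP-1 and, in human cells, holds back the anaphase-promoting complex. Its first probe (NM_024468, chr17:36396026-36396085, minus strand) gave 8.54, 8.49, 8.59 and 8.65 in FD samples 1 to 4, against 8.33, 8.63, 8.58 and 8.78 in wildtype samples 1 to 4, a log2 difference of -0.014 with a standard error of 0.095. Its second probe (chr17:36400675-36400734) gave 7.65, 7.60, 7.43 and 7.67 in FD samples 1 to 4, against 7.71, 7.72, 7.74 and 7.53 in wildtype samples 1 to 4, a log2 difference of -0.090 with a standard error of 0.075. Both probes of the gene thus overlapped between the groups.

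Ppp1r11 had normalized log2 signals of 13.71, 13.72, 13.95 and 13.83 in FD samples 1 to 4, against 14.11, 13.90, 13.80 and 13.69 in wildtype samples 1 to 4. The highest and the lowest value of all both came from wildtype samples, and the difference was -0.076 with a standard error of 0.098. The probe nearest to that of Rnf39 in the genome therefore showed a spread within wildtype that was wider than the difference between the groups.

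Read against all probes, 5 of the 9 probes could be tested and 1 of them, Rnf39, was called higher, where called means an adjusted p under 0.05 in limma with Benjamini-Hochberg adjustment over all 29432 probes. Of all tested probes 3.07% were called, 578 higher and 326 lower. When probes well above background on all arrays of 1 group were tested as well, 7 of the 9 probes entered and Rnf39 and Trim40 were called, against 3.04% of 31127 probes. The groups did not overlap for 1 of the 5 tested probes, Rnf39, and for 13.4% of all 29432 tested probes. They also did not overlap for Trim40, which was not among the 5 and whose wildtype values were not well above background. As the choice of members used this contrast, nothing is read from these counts.

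The stretch from 0.5 Mb before the first to 0.5 Mb after the last of these probes (chr17:35896026-37586296, mm9) held 108 other probes with 90 names, among them 19 probes of class I genes named H2- and 18 of olfactory receptors. Of the 108, 51 probes were tested, 37 were not well above background on any array and 20 were so on some. In the limma comparison 0 of the 51 were called higher and 4 were called lower. Of all 29432 tested probes, 578 were called higher and 326 lower (3.07% together). The methods' t-test called 0 of the 51 higher and 3 in all, against 266 of all tested probes. At an unadjusted p under 0.05 in limma were 17 of the 51, a larger share than the 17.6% of all tested probes. The groups did not overlap for 16 of the 51, also a larger share than the 13.4% of all tested probes. The filter on 1 group, under which Trim40 entered, took 61 other probes of the stretch into the test. It called 5 higher and 8 lower in FD, against 3.04% of 31127 probes. With no filter 3 of 108 were called higher and 9 lower, against 556 of 55440 probes. Probes added by these filters were not well above background on every array, so nothing is read from the added calls. The median log2 difference of the 51 was -0.032, against 0.019 over all tested probes.

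The genes next to Rnf39 that could be measured differed little between the groups. To the right, Znrd1, which encodes a small subunit of RNA polymerase I, averaged 10.76 ± 0.11 in FD DRGs and 10.60 ± 0.087 in wildtype DRGs (SD, n = 4 each). Its probe starts 6.58 kb from that of Rnf39, and the log2 difference was 0.16 with a standard error of 0.074 (adjusted p = 0.299 in limma). Its antisense neighbour Znrd1as, at 17.4 kb, differed by 0.088 with a standard error of 0.060 (adjusted p = 0.484 in limma). The third on that side, 2410137M14Rik at 30.1 kb, was well above background on 0 FD arrays and on 1 wildtype array.

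To the left the nearest probe that belongs to no member was that of 1700031A10Rik, 14.6 kb away, which was not well above background on any array. H2-M10.6, a class I gene 132.5 kb away, was so on 0 FD arrays and on the array of wildtype sample 2 only. The unnamed probe A_55_P1966089, 188.1 kb away, was measured on all arrays and differed by 0.14 with a standard error of 0.072 (adjusted p = 0.363 in limma). Within 100 kb of the Rnf39 probe on both sides lay 9 other probes, of which 4 were tested and 0 called.

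**Figure D2:**
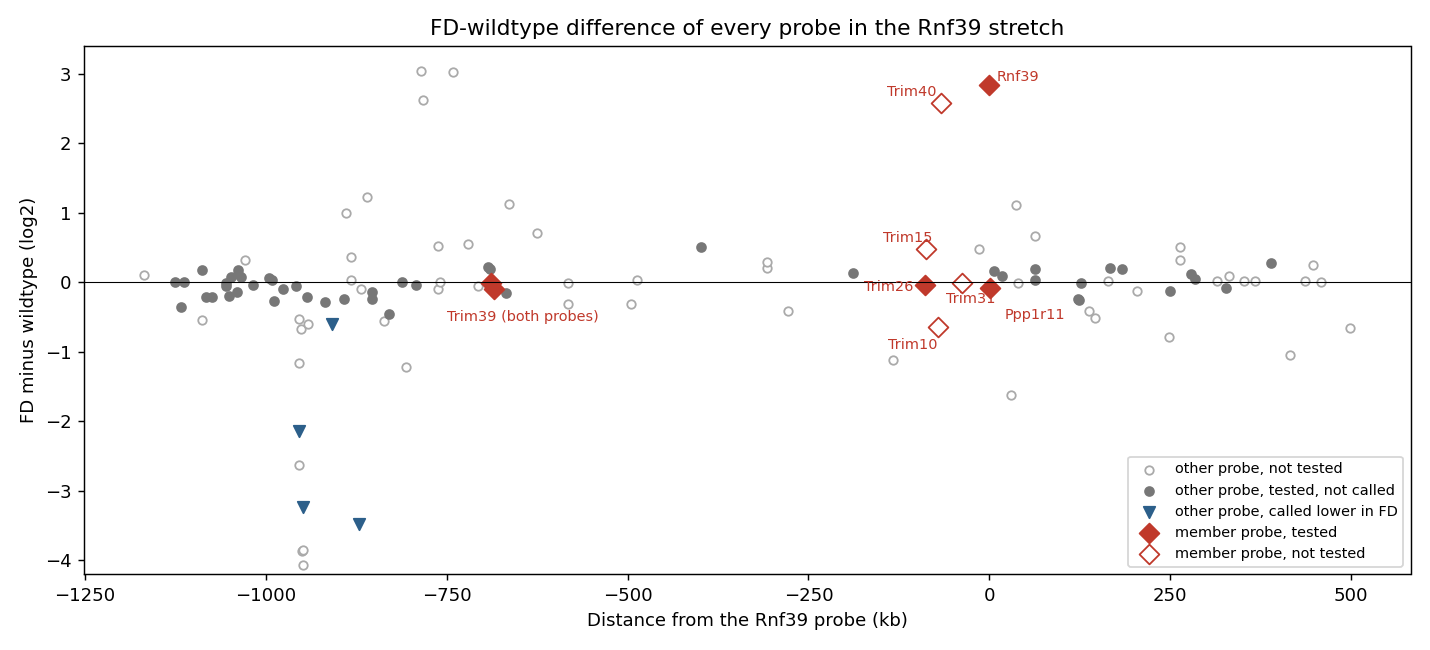
FD minus wildtype difference of normalized log2 signal (vertical axis) of each probe against its distance in kb from the Rnf39 probe (horizontal axis), with member probes as red diamonds, other probes as circles and other probes called lower in FD as blue triangles, filled where the probe was tested. Rnf39 lies at 2.84 and Trim40 at 2.57, a measured value whose wildtype side was not well above background, while 3 untested probes 740 to 785 kb to the left lie between 2.62 and 3.05 and the 4 called probes between 870 and 953 kb to the left.

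The 4 probes of the stretch that were called lower in FD lay far from Rnf39, between 870 and 953 kb to its left. H2-T9, a nonclassical class I gene, had 8.16, 8.12, 8.20 and 8.02 in FD samples 1 to 4, against 8.50, 8.66, 8.86 and 8.87 in wildtype samples 1 to 4, a log2 difference of -0.60 with a standard error of 0.093 (adjusted p = 0.0116 in limma). Class I genes share much of their sequence, so that a probe of one may also read others. The other 3 have no gene name in the files. The unnamed probe A_55_P2016962 averaged 5.34 ± 0.36 in FD DRGs and 8.82 ± 0.26 in wildtype DRGs (SD, n = 4 each), with an adjusted p of 3.3e-05 in limma. A pair of probes of a noncoding stretch, named by the files as chr17:36130717-36137617_F and chr17:36131460-36136694_F, averaged 4.96 and 5.30 in FD DRGs, against 7.09 and 8.54 in wildtype DRGs, with log2 differences of -2.13 and -3.24. All 4 FD samples were below all 4 wildtype samples for each of these 4 probes.

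Outside the tested probes, 4 of the 108 other probes of the stretch showed the pattern of Trim40. These 4 were well above background on 4 FD and 0 wildtype arrays, against 69 of 55440 probes on the slide (0.124%). They were picked out after their values were seen. To the left they were those of 2410017I17Rik, 785 kb away, and the unnamed A_55_P1997911, 740 kb away. To the right they were those of H2-M5, 36.1 kb away, and 1 of the 2 probes of Zfp57, 62.6 kb away. With the replacement used for Trim40, the FD level was 1.73-fold higher for 2410017I17Rik and 2.05-fold for A_55_P1997911. It was 1.27-fold higher for H2-M5 and 1.38-fold for Zfp57. These folds are approximate and no strict lower bounds. All 4 probes were called higher under the filter on 1 group, and 2410017I17Rik and A_55_P1997911 also with no filter. They entered the filter on 1 group only through their FD arrays, against wildtype values not well above background. Nothing is therefore read from these calls. Gm8909, 783 kb to the left, was called higher under both, with 4 FD arrays and 1 wildtype array well above background, and averaged 7.52 ± 0.061 in FD samples and 4.90 ± 0.67 in wildtype samples (SD, n = 4 each). It too entered the filter on 1 group through its FD arrays alone. The other Zfp57 probe, for a zinc finger protein that keeps imprints in the embryo, was measured on all 8 arrays and differed by 0.032 with a standard error of 0.14, and the other H2-M5 probe was not well above background on any array. The reverse pattern was shown by 4 of the 108 probes, against 17 of 55440 probes on the slide (0.0307%). These 4 all lay between 949 and 953 kb to the left, in the same noncoding stretch as the called probes. With the same replacement on the FD side they were 1.60-fold to 7.56-fold lower in FD DRGs, again approximately.

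**Figure D3:**
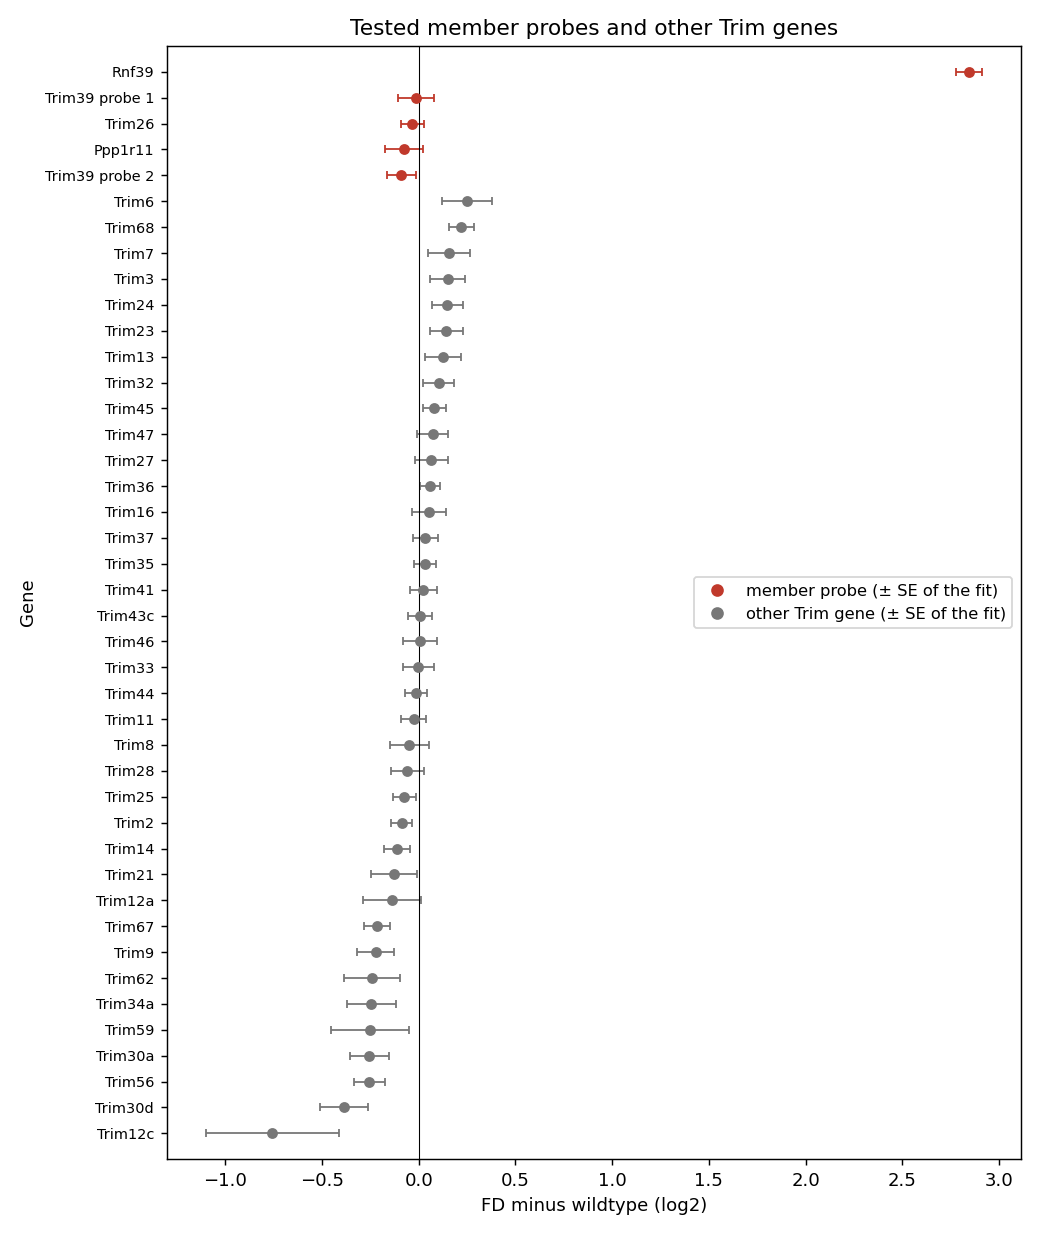
FD minus wildtype difference of normalized log2 signal with the standard error of the fit (horizontal axis) for the 5 tested member probes (red, top) and for the brightest tested probe of 37 other Trim genes (grey). Rnf39 lies at 2.84, and the other Trim genes lie between -0.76 and 0.25.

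Trim genes elsewhere in the genome were measured in the same way. The array held 60 other Trim genes, and 37 had a tested probe. In limma 0 of the 37 were called, with 6 of 37 at an unadjusted p under 0.05 (17.6% of all tested probes), 5 of them lower in FD and 1 higher, and over all their probes the methods' t-test called 0. The median log2 difference was -0.0022, with 19 of the 37 below 0, and the differences ran from -0.76 (Trim12c) to 0.25 (Trim6). The Trim12c value rested in part on wildtype sample 1, at 8.99 against 7.29 to 7.54 in the other wildtype samples. Without that sample it was -0.36. A dimmer probe of Trim12c differed by -0.51 (adjusted p = 0.0816 in limma), and by -0.38 without that sample. Another differed by -0.21 (adjusted p = 0.322 in limma), and by -0.26 without that sample. Trim12c and the Trim30 genes belong to families of near copies on chromosome 7, so that their probes may read more than 1 gene. Trim68 had the smallest adjusted p (0.22 on the log2 scale with a standard error of 0.065, adjusted p = 0.120 in limma). The groups did not overlap for 2 of the 37, against 13.4% of all tested probes. Single other Trim genes were called under some settings: Trim67 with the slide row as a block (adjusted p = 0.0379 in limma), Trim56 without wildtype sample 1 (adjusted p = 0.0198 in limma) and Trim9 without wildtype sample 2 (adjusted p = 0.0306 in limma), each lower in FD DRGs. With array weights Trim56 (-0.33 on the log2 scale, adjusted p = 0.0121 in limma) and a dimmer probe of Trim12c (-0.38, adjusted p = 0.0427 in limma) were called lower.

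Proteins reported as partners or substrates of the members' products were also followed. All 14 of the list had a tested probe, and 0 were called, with 0 at an unadjusted p under 0.05 in limma and 4 in the methods' t-test, after whose adjustment 0 remained. Their median log2 difference was 0.00061. Ddx3x, the reported target of RNF39, averaged 13.83 ± 0.11 in FD DRGs and 13.90 ± 0.19 in wildtype DRGs (SD, n = 4 each). Ikbkg, which encodes IKKγ, averaged 7.50 ± 0.059 in FD DRGs and 7.37 ± 0.067 in wildtype DRGs, a log2 difference of 0.13 with a standard error of 0.059 (adjusted p = 0.292 in limma). Mavs and Irf3, of the antiviral response, differed by 0.046 (adjusted p = 0.698 in limma) and by -0.059 (adjusted p = 0.569 in limma).

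The genes whose pattern over the 8 samples was most like that of Rnf39 were also sought. As Rnf39 separates the groups, this choice itself sets the direction of their group difference. By Pearson's r over the 8 normalized log2 values they were Mapk8 (r = 0.997), which encodes the kinase JNK1, Opn4 (0.995), the photopigment melanopsin, Dnase1l3 (0.994), a secreted nuclease, Dnah8 (0.992), an axonemal dynein heavy chain, and the transcript A930033H14Rik (0.992). Mapk8, Opn4 and Dnase1l3 lie on chromosome 14, A930033H14Rik on chromosome 10, and Dnah8 on chromosome 17 at 31012150 (mm9). Their log2 differences between FD and wildtype were 0.70 for Mapk8, 1.86 for Opn4, 2.81 for Dnase1l3, 1.70 for Dnah8 and 1.85 for A930033H14Rik. Such an r over 2 separate groups reflects mostly the group difference, and all values share the same 8 arrays. Trim40 had r = 0.97 with Rnf39 over the 8 samples, but -0.30 over the 4 FD samples and -0.051 over the 4 wildtype samples. The wildtype values of Trim40 were not well above background and the FD values varied little, so that these within-group values show no relation either way.

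The labelled tissue was checked against its markers. All 7 sensory neuron, 5 satellite glia, 5 Schwann cell and 5 macrophage markers were tested and 0 were called, in limma and in the methods' t-test. At an unadjusted p under 0.05 in limma were 2 of the neuron, 0 of the satellite glia, 3 of the Schwann cell and 2 of the macrophage markers (17.6% of all tested probes). The 2 neuron markers were Scn10a (-0.14 on the log2 scale) and Calca (0.14). Each Schwann cell marker was lower in FD DRGs, with a median log2 difference of -0.19. The 2 macrophage markers were Cd68 (0.51, adjusted p = 0.0573 in limma) and Aif1 (-0.46). The neuron markers had mean levels of 15.65 to 15.71 in FD samples and 15.64 to 15.73 in wildtype samples. Of the gut-type and simple epithelium list, the tissue in which human TRIM40 was described, 1 of 6 (Cdh1) was tested, at 12.37 ± 0.032 in FD DRGs and 12.38 ± 0.032 in wildtype DRGs (SD, n = 4 each), and Epcam, Krt8, Vil1 and Cdx2 were not well above background on any array. Krt20 was so on 1 FD array and 1 wildtype array. The disrupted gene, Gla, gave a normalized log2 signal of 16.51 to 16.71 in FD samples and 16.49 to 16.72 in wildtype samples on its single probe, and whether that probe lies in the disrupted part was not analysed here. The 8 arrays were on 1 slide and read in 1 scan, and 56.5% to 60.8% of their probes were well above background. Their number limits the precision of every value here.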

How the data were processed

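Total RNA of 8 DRG samples was hybridized in 1 color to Agilent mouse arrays. The deposited scanner files hold intensity values that the authors extracted with Agilent Feature Extraction 10.7.3.1, with probe positions on mm9. The authors' processed table, deposited on a log2 scale and quantile normalized in GeneSpring, was used as an alternative. Spots flagged as outliers (93 to 221 per array) and control spots were left out, and 0 spots were saturated. The log2 processed signal was averaged per probe and quantile normalized over 55681 probes with limma 3.58.1 in R 4.3.3, with each array centred on its 75th percentile as an alternative. FD was compared with wildtype in limma, without a block, over 29432 probes well above background on all 8 arrays, with Benjamini-Hochberg adjustment over all of them and a threshold of 0.05. The fit was tested on simulated data. The p-values measure the spread between these pooled samples, since litters are not given in the sources used here.

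The members and lists were chosen with earlier results of these data known. Named were all members, the called probes of the stretch and the 3 nearest to the Rnf39 probe on each side, other called Trim genes, partner genes that were called and up to 4 others, and the 5 genes most like Rnf39. Any other gene named was picked once its values had been looked at. The names of the files were updated through RefSeq accessions where these matched. Per list, the brightest tested probe of a gene was used. Promoter windows, and no genome coordinates of genes, were taken from RefSeq. Alternatives were normexp background correction with an offset of 50, 2 looser filters on dim probes, the methods' t-test, a replicate block, the slide row as a block, array weights and leaving out each sample in turn.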

Additional observations from a re-analysis of the deposited data

How the results depend on the processing

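Rnf39 was called in the main comparison and under each alternative run, with log2 differences of 2.80 to 2.89 in all but normexp background correction, where it was 2.32. As the members were chosen on this contrast, nothing is read from these calls, and the differences are a description. Trim40, which was not tested in the main comparison, differed by 2.43 to 2.79 elsewhere and by 0.81 with normexp. Trim31, not well above background on any array, differed by -0.25 with 75th percentile centring and by -0.072 with normexp. With the looser filters 2 member probes were called in place of 1, since Trim40 then entered the test. Trim40 passed the filter on 1 group through its FD arrays alone, and its wildtype values were not well above background. Nothing is read from that call. The count over all probes, 904, was 556 with no filter on background, 284 with the replicate block, 266 under the methods' t-test and 2102 with array weights, and 414 to 1038 with 1 sample left out. At an unadjusted p of at most 0.01 and a fold of at least 1.2, 1047 probes passed under the methods' t-test and 1774 in limma. The 4 called probes of the stretch became 7 with normexp, 13 with the filter on 1 group, 12 with no filter and 9 with array weights, and 4 to 5 with 1 sample left out. H2-T9 was called in 16 of 18 settings, and the other 3 in all 18. Other Trim genes called were 1 with the slide row as a block, 1 with array weights (by the brightest probe of each gene), and 0 to 1 with 1 sample left out. The cause of these shifts was not tested. The same replicate numbers stood in both groups. The deviations of samples with the same number correlated at 0.063, -0.25, -0.047 and -0.021, and 2 of 8 samples correlated best with their own number. No pairing by number was seen in this, which does not exclude one. The replicate block changed no call of a member. Signal near background limits Trim10, Trim15, Trim31 and the wildtype level of Trim40.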
